A study of Mus musculus with 20 samples.

Results

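The genes described here are the semaphorins, their plexin receptors and the neuropilins that act as co-receptors for them, in mouse mammary epithelial cells and in the tumor cells derived from them. They were chosen by type and name: a row of the deposited table had to be protein coding and to carry the symbol of a semaphorin of class 3 to 7, of a plexin of group A, B, C or D, or of Nrp1 or Nrp2. Of the 54986 genes in the table, 31 qualified, namely 20 semaphorins, 9 plexins and 2 neuropilins. Of these, 22 passed the filter on low values (13 semaphorins, 7 plexins and both neuropilins) and were tested among 17106 genes. The other 9 (Sema3a, Sema3d, Sema3g, Sema5a, Sema5b, Sema6a, Sema7a, Plxnb3 and Plxnc1) had at most 1 library at 1 CPM, the number of reads of a gene relative to the reads of its library, or more, and their highest values ranged from 0.0194 to 1.18 CPM.

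Semaphorins are guidance proteins that repel or attract growing axons and also act on epithelial, endothelial and immune cells. Class 3 semaphorins are secreted, and most of them signal through a complex of a neuropilin, which binds the ligand, and an A-group plexin, which carries the signal. Class 4 to 6 semaphorins span the membrane, class 7 is held by a lipid anchor, and B-group plexins, plexin C1 and plexin D1 can bind semaphorins without a neuropilin. The cytoplasmic part of a plexin inactivates small GTPases of the Ras and Rap family, and neuropilins also bind vascular endothelial growth factors.

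RNA was sequenced from 10 conditions of NMuMG, an epithelial cell line of normal murine mammary gland, with 2 libraries each. NMuMG denotes the untreated line and TGFb the same line treated with TGFbeta for 4 days, at a dose that the labels do not give. E1KD cells carry an shRNA against hnRNP E1 (gene Pcbp1), and M1P and L1P are cells that were isolated from the primary tumor and from the lung metastases of E1KD cells placed in the mammary fat pad of NOD/SCID mice, which lack B and T cells, then grown again in culture under puromycin selection. The remaining 5 conditions were NMuMG with an empty vector (EV), 2 single clones of NMuMG that overexpress the long noncoding RNA Platr18 (OE12 and OE16, clones 12 and 16), and E1KD cells with a scrambled shRNA (SCR) or with a Platr18 shRNA (PKD). M1P, L1P, SCR and PKD thus all carry the hnRNP E1 shRNA too.

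The libraries were of 2 kinds, which the labels do not name. NMuMG, TGFb, E1KD, M1P and L1P were scaled to 50.8 to 60.03 M reads (M for mega) and had 333 to 492 CPM of mitochondrial 16S rRNA (mt-Rnr2), whereas the other 5 conditions were scaled to 62.96 to 147.3 M reads and had 113874 to 165149 CPM of it, so levels were compared only within a kind. At these depths 3 reads were worth 0.04998 to 0.0591 CPM in the first kind and 0.0204 to 0.0477 CPM in the second. One library stood apart: E1KD replicate 1 had a median log2 ratio of 0.29 to its sister library, against 0.07 or less in size for the other pairs. The silenced gene was low where the labels say so: Pcbp1 fell from 287 and 312 CPM (NMuMG) to 16.6 and 14.21 CPM (E1KD), and from 32.29 and 32.31 CPM (EV) to 3.28 and 3.46 CPM (SCR). Of the epithelial markers, Krt8, Krt18, Cdh1 and Ocln were present in every library, while Epcam and Cldn3 never exceeded 0.04998 CPM. The other two moved between conditions, Cldn4 from 0.124 and 0.113 CPM in NMuMG to 18.5 and 20.2 CPM with TGFb, and Krt7 from 18.6 and 18.7 CPM in NMuMG to 2.48 and 1.64 CPM in E1KD and 0.489 to 0.886 CPM in M1P and L1P. Endothelial markers (7 genes) summed to at most 0.608 CPM in any library, with Emcn and Erg at or near 0. In M1P and L1P, where cells of the host could remain, fibroblast markers (6 genes) summed to 0.454 to 0.913 CPM and leukocyte markers (8 genes) to 3.15 to 3.72 CPM, against 1.98 to 7.71 CPM of the latter over all libraries.

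Per kb of exon, Plxnb2 and Plxna1 were the most abundant members in NMuMG. Plxnb2, a plexin that binds class 4 semaphorins, had 27.8 ± 0.519 CPM per kb (SD, n = 2 libraries), and Plxna1, a signaling partner of the neuropilins, had 17.5 ± 0.0736 CPM per kb. They were followed by Sema4b at 10.2 ± 0.281, Sema3c at 8.86 ± 0.0537, Plxnb1 at 7.19 ± 0.0202 and Nrp2 at 5.21 ± 0.224 CPM per kb, and the replicates of neighbours in this order did not overlap. Plxnb2 stayed first in every other condition except TGFb, where Plxna1 (39.1 ± 2.12 CPM per kb) and Nrp2 (30.2 ± 1.52) stood above it (22.3 ± 1.45), again without overlap of the replicates. In E1KD the levels of Nrp1 (8.57 ± 2.29 CPM per kb) and Nrp2 (8.19 ± 1.33) did not differ beyond their spread.

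**Figure D1:**
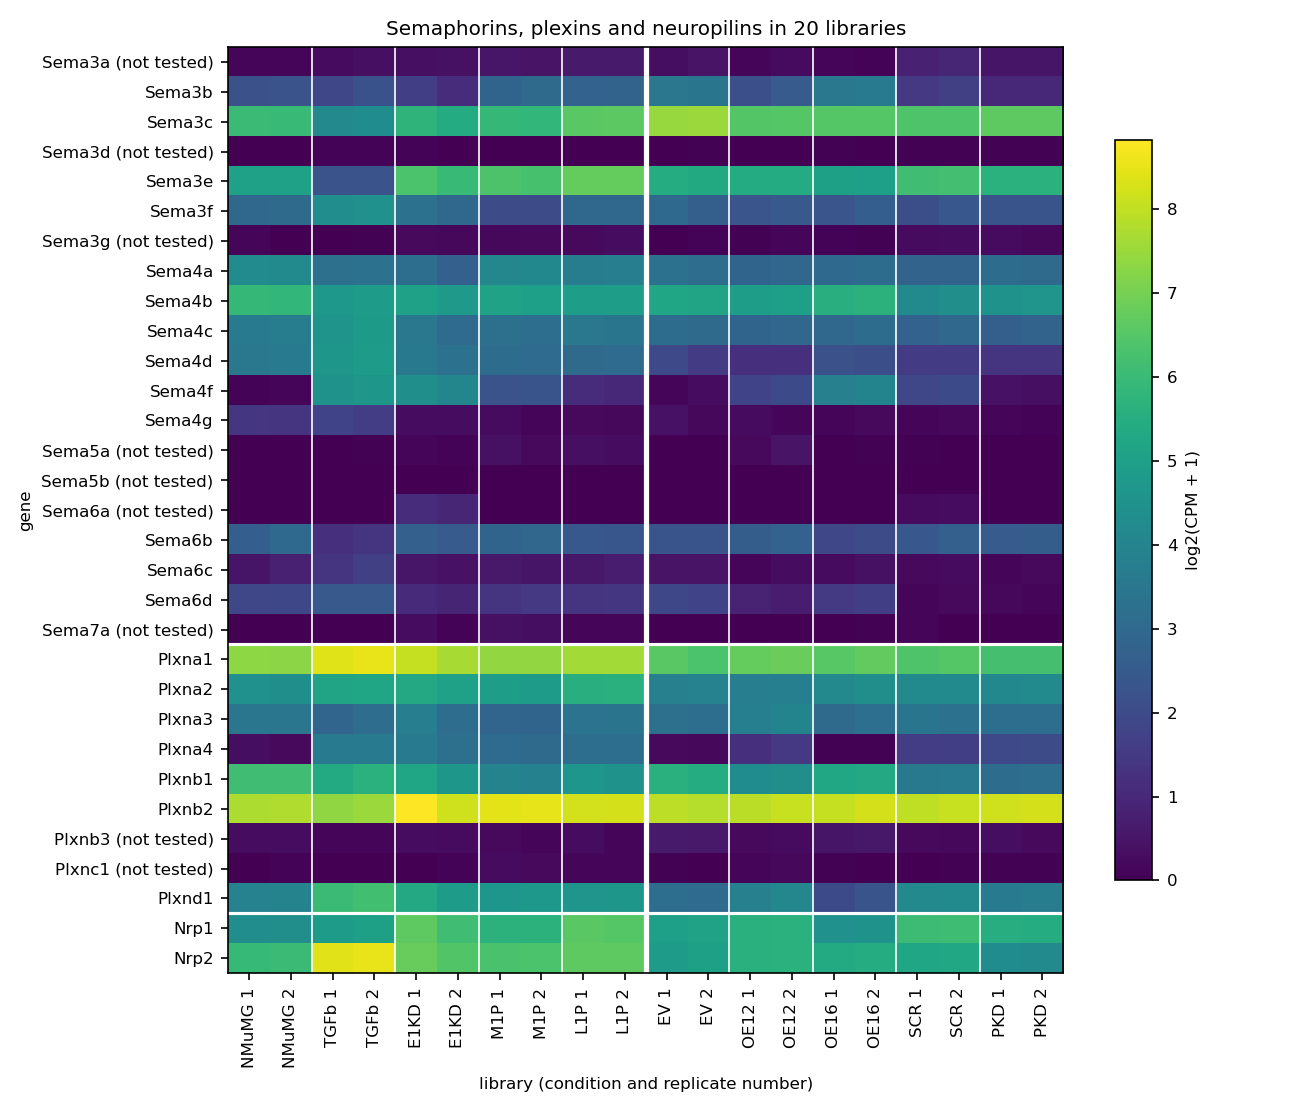
Level of each of the 31 genes (rows) in each of the 20 libraries (columns), as log2(CPM + 1) on a color scale that starts at 0. The thick vertical line separates the 2 kinds of library, and the 9 genes that were not tested stay at or below 1.18 CPM in every library, while Plxnb2 and Plxna1 are high in every library.

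The first comparison was that of TGFb with NMuMG, which shows the response of the family to a cytokine that drives epithelial cells into a mesenchymal state. A gene was called at an unadjusted p under 0.001 and a difference of at least 1 in mean log2(CPM + 1), from limma. TGFb changed 12 of the 22 tested members, 54.5% of them, where 13.5% of all tested genes were called. Semaphorins made up 8 of them, with 3 plexins and 1 neuropilin. In all 8 genes were higher and 4 lower, against 5.85% and 7.66% of all tested genes, and the median difference was 0.59 over the members and -0.08 over all tested genes. Because nothing states that the 2 libraries of a condition came from separate cultures, the p-values measure only the spread between these libraries, which may be technical. In bulk RNA, fewer cells that express a gene and less of its RNA per cell cannot be told apart.

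Of the secreted ligands, 2 fell. Sema3e, which binds plexin D1 without a neuropilin, had 32.6 and 32.5 CPM in NMuMG and 3.76 and 3.81 CPM with TGFb. Its difference was -2.81 ± 0.0893 (SE), with an adjusted p = 3.0e-12 (limma, Benjamini-Hochberg, as in all that follow), the 187th largest among all tested genes. Sema3c, a ligand of both neuropilins, went from 63.6 and 63.0 CPM to 16.6 and 18.4 CPM, a difference of -1.80 (adjusted p = 1.9e-10). Both ligands were lower in both TGFb libraries, whereas Sema3b, another class 3 member, had overlapping groups (3.59 and 3.77 against 2.65 and 3.73 CPM). Sema3f, the class 3 ligand that prefers Nrp2, went the other way, from 6.92 and 7.28 to 19.2 and 21.1 CPM.

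Of the receptors, 4 rose. Nrp2 had 59.8 and 63.6 CPM in NMuMG and 344 and 369.9 CPM with TGFb, 5.79 times the mean, and its difference was 2.51 ± 0.0920 (adjusted p = 1.3e-11). Plxnd1, the receptor of Sema3e, went from 14.2 and 14.3 CPM to 63.5 and 69.8 CPM, a difference of 2.14 (adjusted p = 3.4e-09). For this ligand and its receptor the directions were thus opposite: the ratio of Sema3e to Plxnd1 in CPM per kb, which no scaling of a library can change, was 1.80 and 1.78 in NMuMG and 0.0465 and 0.0430 with TGFb. Plxna4, a plexin of axons that pairs with neuropilins, had 0.248 and 0.170 CPM in NMuMG and 11.5 and 11.4 CPM with TGFb (difference 3.37, adjusted p = 1.2e-12). Of the other A-group plexins, Plxna1 was called higher, while Plxna2 and Plxna3 had differences of 0.74 and -0.46 and were not called.

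Among the membrane-bound semaphorins, Sema4f had the largest difference. It had 0.0531 and 0.0754 CPM in NMuMG, which is 3 and 4 reads, and 22.1 and 24.5 CPM with TGFb, a difference of 4.51 (adjusted p = 1.5e-13). The 6 further called members were Sema3f, Sema4c, Sema4d and Plxna1, with differences of 1.023 to 1.38, and Sema4b and Sema6b, with -1.07 and -1.54. In those 6 genes, too, the 2 groups did not overlap. Sema4c, which signals through Plxnb2, was not called without NMuMG replicate 1 or without TGFb replicate 2 (0.90 at the lowest), and Sema4b not without TGFb replicate 1 (-0.99). With rescaling by median-of-ratios factors 8 members were higher and 3 lower, as Sema4b was no longer called, while the share of higher genes among all called moved from 43.3% to 53.5%. In the TGFb libraries markers of fibroblasts summed to 43.2 and 51.9 CPM, against 0.637 and 0.849 CPM in NMuMG. Of these 6 markers Col1a1 and Pdgfrb made up most, while Dcn and Lum were at or near 0. Of the neural markers reported here, Sox10 was listed at 0 in both NMuMG libraries and had 8.53 and 8.45 CPM with TGFb, while Elavl3, Rbfox3 and Snap25 stayed at or below 0.0943 CPM in both conditions. The part of these markers in the changes of the family was not tested.

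The promoters of 26 of the 31 genes are in the RefSeq table of build GRCm38.p6, in 37 windows. They were searched on both strands, over the 250 bases before the gene start, for an AP-1 site (TGANTCA), an E-box of the Snail and Zeb type (CAGGTG) and the SMAD palindrome (GTCTAGAC). An E-box was found in 5 of the 37 windows (those of Plxnb2, Sema3d, Sema4c, Sema4f and Sema6d), 13.5% of them, and in 17.2% of all 32851 windows of the table. AP-1 letters were in 3 of the 37 (Sema4c, Sema4d and Sema6b), 8.11%, and in 6.75% of all windows, and the SMAD palindrome in 0 of the 37 and in 0.167% of all. The windows of 3 genes are printed because their genes were called higher with TGFb and differ in these matches: Sema4f holds an E-box at 110 and at 89 bases before its start, Sema4c an E-box at 124 and an AP-1 site at 22 bases, which do not overlap, and Plxnd1 has no match. Capitals mark the matches, 5′ to 3′ on the minus strand, which is the strand of all 3 genes (chr6:82939770-82940019, chr1:36558382-36558631 and chr6:115995006-115995255). Sema4c has a second window (chr1:36557558-36557807), which is not printed and has no match. A match describes letters only.
Sema4f: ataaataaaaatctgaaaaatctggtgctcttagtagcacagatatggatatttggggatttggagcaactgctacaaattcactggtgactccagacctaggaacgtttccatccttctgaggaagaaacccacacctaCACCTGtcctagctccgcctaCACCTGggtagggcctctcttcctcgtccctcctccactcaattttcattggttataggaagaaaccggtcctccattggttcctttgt
Sema4c: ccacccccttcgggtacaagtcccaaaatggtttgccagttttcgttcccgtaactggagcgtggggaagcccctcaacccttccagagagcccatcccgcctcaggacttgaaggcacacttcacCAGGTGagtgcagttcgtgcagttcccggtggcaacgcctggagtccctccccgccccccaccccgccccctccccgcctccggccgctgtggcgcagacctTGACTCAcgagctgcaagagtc
Plxnd1: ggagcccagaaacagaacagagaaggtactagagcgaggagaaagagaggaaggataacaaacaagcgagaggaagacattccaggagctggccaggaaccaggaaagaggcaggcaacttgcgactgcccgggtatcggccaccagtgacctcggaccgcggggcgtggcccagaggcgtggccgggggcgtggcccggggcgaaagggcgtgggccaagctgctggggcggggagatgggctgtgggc

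Silencing of hnRNP E1, which the paper describes as also inducing a mesenchymal state, was compared next. The mesenchymal markers Vim, Cdh2, Fn1, Zeb1 and Snai1 summed to 530 and 551 CPM in NMuMG and to 1812 and 1333 CPM in E1KD. Vim made up most of each sum, and each marker was higher in both E1KD libraries. Between E1KD and NMuMG 8 of the 22 were called, 36.4%, against 9.44% of all tested genes. Of these 5 were higher and 3 lower, where 6.44% and 2.99% of all genes were. The median difference was -0.07 over the members and 0.17 over all tested genes. The latter moved to 0.01 with rescaling by median-of-ratios factors. The differences printed for E1KD are not corrected for it.

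Nrp1, the neuropilin bound by Sema3a and VEGF-A, rose here and was not called with TGFb (0.61). From 19.2 and 19.6 CPM it went to 99.7 and 67.96 CPM, a difference of 2.03 ± 0.122 (adjusted p = 4.4e-09). The E1KD libraries were far apart but both stood above both NMuMG libraries. Plxna4 rose to 11.1 and 8.65 CPM (difference 3.16, adjusted p = 2.5e-12) and Sema4f to 19.999 and 15.6 CPM (4.13, adjusted p = 4.0e-13). Plxnd1 had 39.2 and 28.6 CPM (difference 1.18, adjusted p = 3.3e-06).

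The genes that fell included 2 semaphorins and a plexin. Sema4a, a class 4 member best known from immune cells, went from 18.1 and 17.4 CPM to 8.15 and 5.53 CPM (difference -1.28, adjusted p = 4.7e-07). Plxnb1, the receptor of Sema4d, went from 69.1 and 68.8 CPM to 35.4 and 24.8 CPM (-1.19, adjusted p = 1.5e-06). Sema4g and Sema3e, the remaining called members, had differences of -1.08 and 1.08. Sema4g passed the filter only through the NMuMG and TGFb libraries and had at most 0.356 CPM in any other. Its calls against E1KD are thus not independent of the filter.

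Several calls near the limit each rested on 1 or the other E1KD library. Without E1KD replicate 1 Plxnd1 (0.96) and Sema3e (0.90) were not called, and Sema3b and Sema4b were called lower. Without E1KD replicate 2 Plxnb1 (-0.94) was not called, and Plxnb2 (1.08) was called higher. Fitted on the NMuMG and E1KD libraries alone, 3 members were called (Plxna4, Sema4f and Sema4g). Of all 17106 tested genes 758 were called in that fit, and 1614 in the main one. With rescaling by median-of-ratios factors 3 members were higher (Nrp1, Plxna4 and Sema4f) and 5 lower (Plxnb1, Sema4a, Sema4b, Sema4g and Sema6d), and the share of higher genes among all called moved from 68.3% to 51.2%.

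Sema6a, a transmembrane semaphorin that binds A-group plexins, did not pass the filter but was present in 2 silenced lines. It was listed at 0 in both libraries of NMuMG, TGFb, M1P, L1P, EV and OE12, and had 1.18 and 0.942 CPM in E1KD and 0.203 and 0.222 CPM in SCR. In OE16 and PKD it was at 0 in 1 library and at 0.0139 and 0.0136 CPM, which is 1 and 2 reads, in the other. It was picked out after its values were seen.

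E1KD and TGFb were then compared with each other, since both share the NMuMG libraries as controls. Of the 22 members 12 differed, 54.5%, against 23.3% of all tested genes. In E1KD 5 were higher and 7 lower, where 17.2% and 6.17% of all genes were. The median over all tested genes was 0.26, and 0.02 with rescaling by median-of-ratios factors. The share of higher genes among all called was 73.6%, and 50.1% with rescaling by median-of-ratios factors, under which 4 members were higher and 8 lower, with Plxnd1 in place of Plxnb2. Fitted on the E1KD and TGFb libraries alone, 4 members were called (Sema3e, Nrp2, Sema6d and Sema4g). Of all 17106 tested genes 1366 were called in that fit, and 3993 in the main one. The widest gap was that of Sema3e, which fell with TGFb and was at 79.1 and 61.5 CPM in E1KD, 18.6 times the TGFb mean (difference 3.89 ± 0.0893, adjusted p = 7.0e-14), at least 3.55 under every alternative setting run. The neuropilins split. Nrp2 was lower in E1KD (108 and 85.9 CPM) than with TGFb (difference -1.88, adjusted p = 2.3e-10), and Nrp1 was higher than the 28.6 and 31.8 CPM of TGFb (1.42, adjusted p = 1.1e-07). Within a library, the ratio of Nrp2 to Nrp1 in CPM per kb was 2.58 and 2.68 in NMuMG, 9.95 and 9.62 with TGFb, and 0.895 and 1.04 in E1KD.

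Of the 9 tested class 4 and class 6 semaphorins, 5 were called lower in E1KD than with TGFb, 1 was called higher and 3 were not called. Sema6d, a ligand of plexin A1, had 4.52 and 4.55 CPM with TGFb and 1.10 and 0.887 CPM in E1KD (difference -1.47, adjusted p = 1.2e-09). Sema4g had 2.42 and 2.07 CPM against 0.217 and 0.222 CPM (-1.41, adjusted p = 1.8e-09), and Sema4c 22.95 and 27.3 CPM against 10.6 and 7.43 CPM (-1.40, adjusted p = 3.0e-07). In each of these genes the 2 conditions did not overlap. Of the remaining called members, Sema3f, Sema4d and Sema6c were lower by differences of -1.33 to -1.02, and Sema3c, Sema6b and Plxnb2 were higher by 1.07 to 1.37. Sema6c passed the filter only through the TGFb libraries (1.49 and 2.18 CPM) and had at most 0.773 CPM in any other. Its call is thus not independent of the filter, and neither is that of Sema4g, which passed only through the NMuMG and TGFb libraries. Plxnb2 was not called without E1KD replicate 1 (0.75). Sema4f, Plxna4 and Plxnd1, called higher in both conditions, had differences of -0.38 (adjusted p = 0.0060), -0.20 (adjusted p = 0.078) and -0.97 (adjusted p = 1.1e-05) between them.

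**Figure D2:**
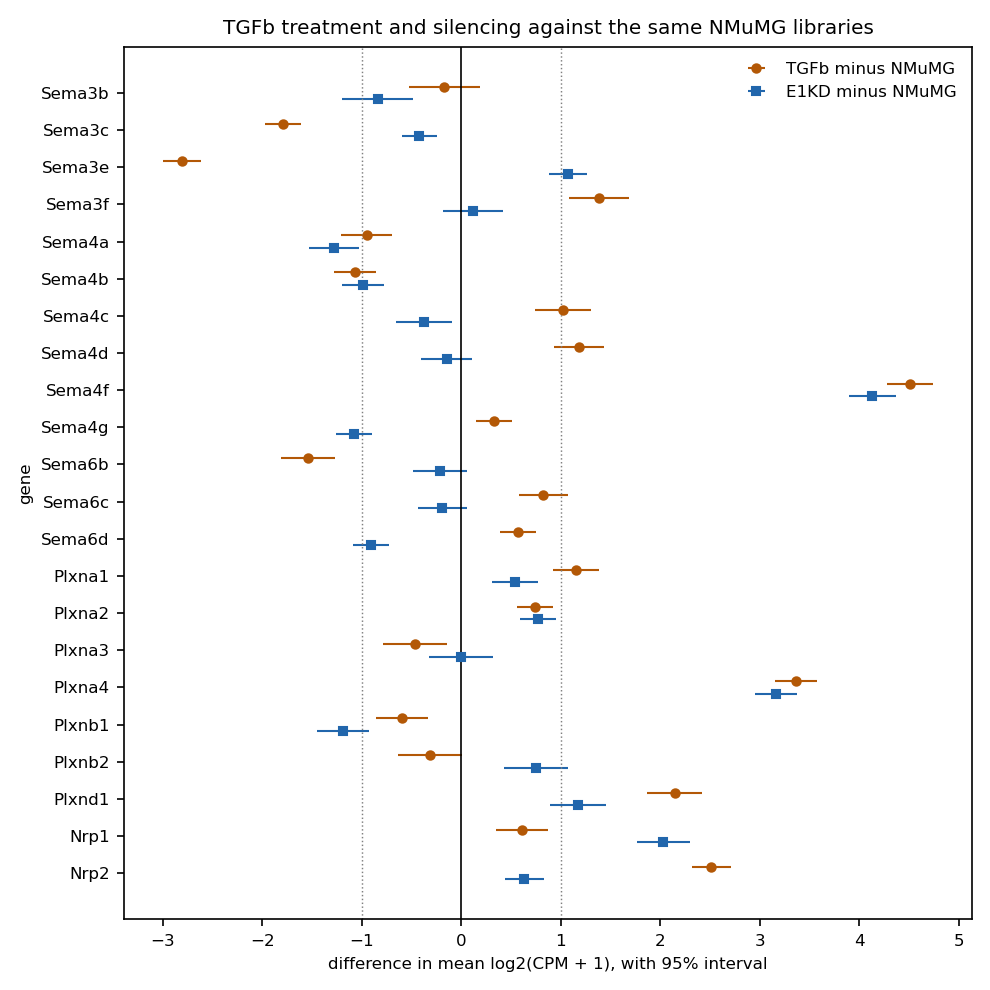
Difference in mean log2(CPM + 1) of the 22 tested genes from the same NMuMG libraries, for TGFb (circles) and E1KD (squares), with 95% intervals from limma; dotted lines mark a difference of 1 in either direction. Sema3e lies at -2.81 for TGFb and 1.08 for E1KD, Nrp2 at 2.51 and 0.63, and Nrp1 at 0.61 and 2.03, whereas Sema4f and Plxna4 lie above 3 in both.

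The partner genes of the family (52 co-receptors, other neuropilin ligands and intracellular effectors, of which 43 were tested) were counted in the same way. With TGFb 9 were called, 20.9%, against 13.5% of all tested genes, 7 higher (5.85% of all) and 2 lower (7.66%). The receptor tyrosine kinase Mst1r (Ron), which associates with B-group plexins, rose from 6.09 and 6.37 to 31.9 and 34.4 CPM, and Vegfc, a neuropilin 2 ligand, from 0.885 and 0.641 to 6.86 and 7.05 CPM. The integrin subunit Itga1 fell from 19.6 and 19.2 to 2.45 and 1.99 CPM. In E1KD 6 were called, 14.0%, against 9.44% of all tested genes, 5 higher (6.44% of all) and 1 lower (2.99%), and here Mst1r was the one that fell, to 1.85 and 1.29 CPM, a difference of -3.74 from TGFb (adjusted p = 6.1e-13). Fyn, the Src-family kinase of semaphorin 3A signaling, was listed at 0 in both NMuMG libraries and in all EV, OE12 and OE16 libraries, and reached no more than 0.0167 CPM with TGFb. It had 10.8 and 8.37 CPM in E1KD, and between 2.52 and 8.43 CPM in the M1P, L1P, SCR and PKD libraries. Rnd1, a small GTPase that binds plexins, went from a mean of 6.54 to 24.4 CPM (difference 1.75, adjusted p = 1.4e-09).

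Cells recovered from the primary tumor were compared with E1KD cells, the line that had been injected. M1P and L1P are each 1 line with 2 libraries. An effect of growth in the animal thus cannot be told apart from one of selection, of renewed culture or of the single line. The same holds for L1P against M1P. Between M1P and E1KD 5 members were called, 22.7%, against 3.59% of all tested genes. In M1P 2 were higher and 3 lower, where 1.16% and 2.43% of all genes were. Sema3b, a secreted ligand described as a tumor suppressor, had 2.13 and 1.18 CPM in E1KD and 6.23 and 7.37 CPM in M1P (difference 1.57, adjusted p = 4.5e-06). Sema4a went from 8.15 and 5.53 CPM to 16.1 and 16.3 CPM (1.15, adjusted p = 3.5e-06), beside the 18.1 and 17.4 CPM of NMuMG. Sema4f fell to 3.75 and 3.86 CPM (-1.96, adjusted p = 4.6e-09), Sema3f from 8.90 and 6.76 to 3.11 and 3.05 CPM (-1.10, adjusted p = 3.1e-05), and Plxnb1 to 14.3 and 13.7 CPM (-1.03, adjusted p = 1.5e-05). None of these 5 genes had overlapping groups. Of these calls, Sema3f and Plxnb1 rested on E1KD replicate 1 (-0.93 and -0.78 without it), and Sema4a on E1KD replicate 2 (0.91 without it). Fitted on the M1P and E1KD libraries alone, limma called 0 members, with 7 at an unadjusted p under 0.05. Of all 17106 tested genes 274 were called in that fit, and 614 in the main one. With rescaling by median-of-ratios factors Sema3f and Plxnb1 were not called either, and the share of higher genes among all called moved from 32.2% to 51.7%. Of the partners 4 were called, 9.30%, the largest differences being those of Mst1r (to 8.48 and 9.27 CPM, 1.95), the adhesion molecule Nrcam (to 3.26 and 3.19 CPM, 1.60) and Dpysl3, a collapsin response mediator (to 63.7 and 62.8 CPM, 1.32).

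From the primary tumor to the lung metastases fewer members were called. Sema4f was the only one among the 22 members between L1P and M1P, 4.55%, against 1.21% of all tested genes, or 0.742% higher and 0.468% lower. It fell to 1.16 and 1.01 CPM (difference -1.21, adjusted p = 2.7e-06). Below the limit of 1, 8 members had a higher level in L1P at an adjusted p under 0.05, where 11.2% of all tested genes were higher at that level, namely the ligands Sema3c, Sema3e and Sema3f and the receptors Nrp1, Nrp2, Plxna2, Plxna3 and Plxnb1, with differences of 0.32 to 0.95. Sema3f went from 3.11 and 3.05 CPM to 6.79 and 6.95 CPM, and Nrp1 went from 49.99 and 50.3 CPM to 93.3 and 89.9 CPM. Sema4a (-0.36) and Sema6b (-0.48) were lower at that level, as were 7.30% of all tested genes, and the groups of none of these 10 genes overlapped. None of the 43 partners was called by limma, 20 had an unadjusted p under 0.05, and 1 was called with pseudocount 0.1.

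**Figure D3:**
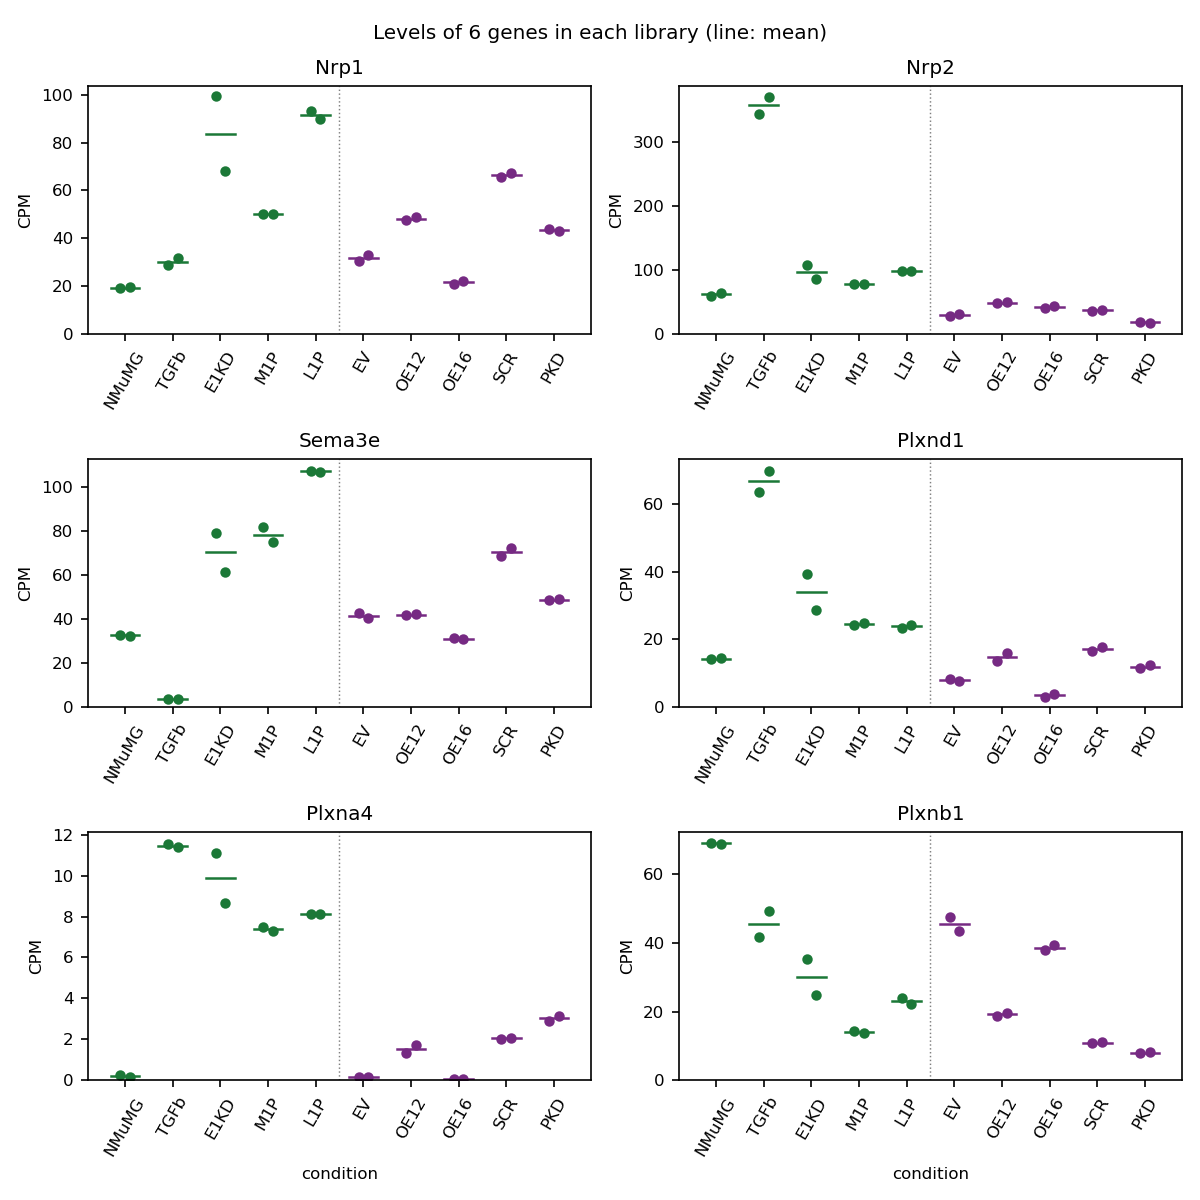
CPM of Nrp1, Nrp2, Sema3e, Plxnd1, Plxna4 and Plxnb1 in each library (points) with the mean of the 2 libraries (line), by condition; the dotted line separates the 2 kinds of library, between which levels were not compared. Nrp2 peaks with TGFb at 344 and 369.9 CPM, where Sema3e is at 3.76 and 3.81 CPM, and Plxnb1 is lower in SCR and PKD than in EV.

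In the second kind of library, SCR against EV gave the same question as E1KD against NMuMG, the effect of silencing hnRNP E1, in other libraries. The mesenchymal markers summed to 642 and 681 CPM in EV and to 751 and 816 CPM in SCR. Each marker was higher in both SCR libraries, with Snai1 at no more than 0.365 CPM. Of the 22 members 8 were called, 36.4%, against 5.98% of all tested genes. They were 4 higher and 4 lower, where 2.91% and 3.07% of all genes were. Plxnb1 went from 47.4 and 43.3 CPM in EV to 10.8 and 11.2 CPM in SCR (difference -1.95, adjusted p = 1.1e-08). Sema3b went from 10.5 and 9.72 to 1.73 and 2.19 CPM (-1.91, adjusted p = 3.7e-07), Sema6d from 2.79 and 2.45 to 0.122 and 0.159 CPM (-1.67, adjusted p = 8.7e-10), and Sema3c from 177 and 179.9 to 82.8 and 82.7 CPM (-1.10, adjusted p = 9.7e-08). All 4 were lower in both SCR libraries than in either EV library. Sema4f rose from 0.123 and 0.232 to 2.69 and 2.94 CPM (1.70, adjusted p = 1.4e-08) and Plxna4 from 0.178 and 0.145 to 2.03 and 2.08 CPM (1.40, adjusted p = 4.0e-08). Nrp1 and Plxnd1 were both higher by 1.04, near the limit: Nrp1 was not called without EV replicate 1 (0.99), nor Plxnd1 without EV replicate 2 or SCR replicate 2 (0.99). The partners gave 5 calls, 11.6%, with Fyn higher (2.25) and Dpysl3 (-1.69) and Mst1r (-1.45) lower.

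Thus 5 members were called in the same direction in both kinds of library, which is 62.5% of the 8 called in each. Nrp1, Plxna4, Plxnd1 and Sema4f were up and Plxnb1 was down in silenced cells. SCR are E1KD cells with an added shRNA, so the 2 comparisons are not independent repeats of silencing. In each of them an effect of silencing cannot be told apart from one of the line and its vectors. Over all tested genes, 689 were shared in direction, 42.7% of the first list and 67.4% of the second. The size of the effect was compared in the same fit, where 3 members differed, 13.6%, against 3.51% of all tested genes (2.57% in the direction of these 3 and 0.947% in the other). The effect in the first kind was larger for Sema4f by 2.43 (adjusted p = 5.8e-08) and for Plxna4 by 1.77 (adjusted p = 5.1e-07), and for Sema3b it was less negative by 1.07 (adjusted p = 0.0047), a call that was lost in 6 of the 8 fits that left out a library and with rescaling by median-of-ratios factors (0.92). Under that rescaling 2 members had a higher and 1 a lower effect in the first kind, the latter being Sema4a (-1.06), and the share of higher genes among all called moved from 73.0% to 56.4%. With equal sums 2 were higher and 2 lower (Sema4a and Sema4g). The kind of library and the added vectors of EV and SCR cannot be told apart in this comparison. Partners with a larger effect in the first kind numbered 6, 14.0%, with Dpysl3 (1.67), Vegfc (1.55) and Rnd1 (1.49) in front.

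**Figure D4:**
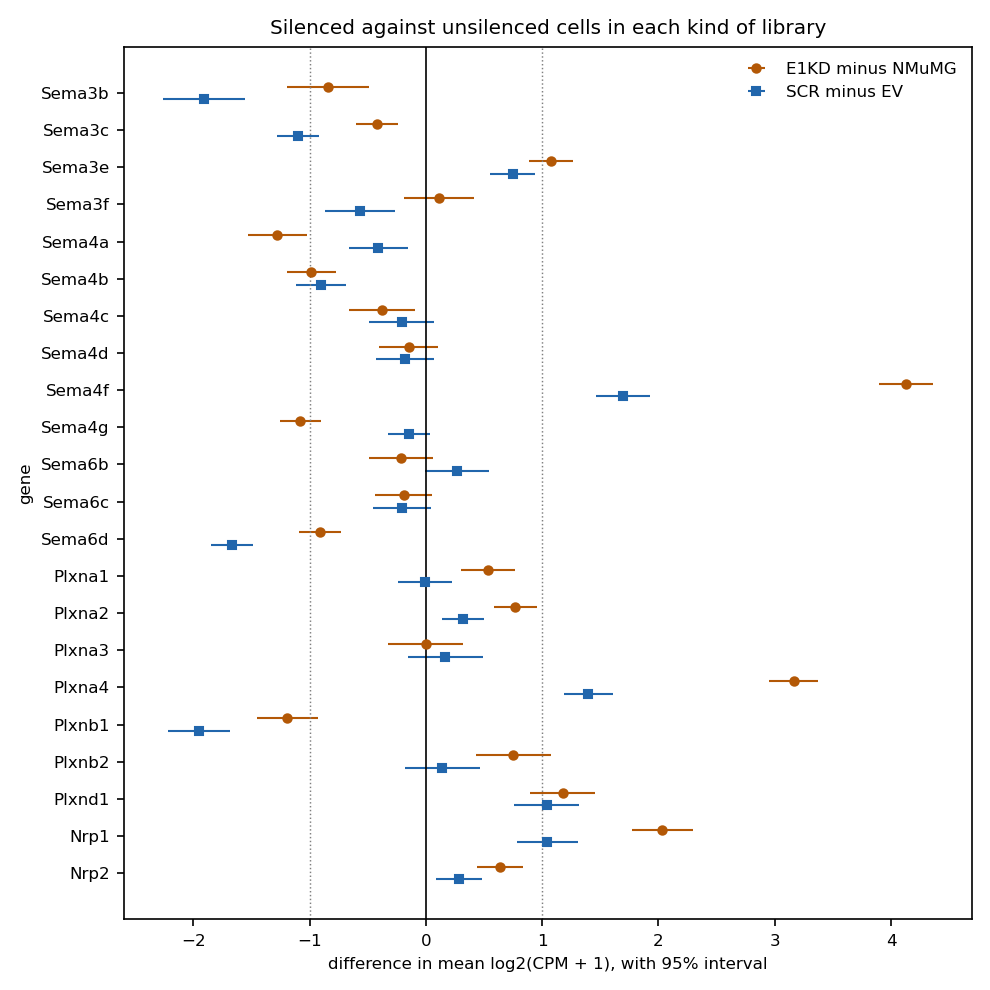
Difference in mean log2(CPM + 1) of the 22 tested genes between silenced and unsilenced cells, for E1KD against NMuMG (circles) and SCR against EV (squares), with 95% intervals from limma. Nrp1, Plxna4, Plxnd1 and Sema4f lie at 1.04 or above in both, and Plxnb1 lies at -1.19 and -1.95.

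Platr18 overexpression was read in 2 clones against EV. Over both clones together only Sema4f was called, 4.55% of the 22 members, against 1.46% of all tested genes, or 0.427% higher and 1.03% lower (0.123 and 0.232 CPM in EV, 2.42 and 2.91 CPM in OE12, 13.5 and 15.0 CPM in OE16, difference 2.66, adjusted p = 1.1e-10). Sema3c was just short of the limit and was picked out after its values were seen: it had 177 and 179.9 CPM in EV, 87.8 and 89.99 CPM in OE12, and 90.8 and 89.1 CPM in OE16 (difference -0.99, adjusted p = 2.1e-07). Both clones had about the same level of it, and without EV replicate 1 it was called (-1.001). None of the 43 partners was called by limma, 23 had an unadjusted p under 0.05, and other settings that kept the fold limit gave at most 2 calls.

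The clones were also compared with each other. Between OE16 and OE12 5 members were called, 22.7%, against 4.38% of all tested genes, 2 higher in OE16 (2.71% of all genes) and 3 lower (1.68%). Plxnd1 had 8.18 and 7.56 CPM in EV, 13.5 and 15.8 CPM in OE12 and 2.99 and 3.94 CPM in OE16 (difference between the clones -1.81, adjusted p = 7.3e-08). Nrp1 had 30.5 and 33.1 CPM in EV, 47.4 and 49.0 CPM in OE12 and 20.97 and 22.1 CPM in OE16 (-1.13, adjusted p = 4.7e-06). Both receptors were thus above EV in one clone and below it in the other. Plxna4 had 1.32 and 1.73 CPM in OE12 and 0.0416 and 0.0419 CPM, which is 3 reads each, in OE16 (-1.27, adjusted p = 1.6e-07). Sema3b had 3.51 and 4.77 CPM in OE12 and 10.5 and 11.5 CPM in OE16, beside 10.5 and 9.72 CPM in EV (1.23, adjusted p = 3.4e-05), and Sema4f differed by 2.05 (adjusted p = 3.2e-09). Platr18 itself, listed as Lncenc1, was at 3092 and 3096 CPM in OE12 and at 813 and 819.8 CPM in OE16. Against EV alone, 5 members were called in OE12 (Sema4f and Plxna4 higher, Plxnb1, Sema3b and Sema6d lower), where 3.65% of all tested genes were, and 1 in OE16 (Sema4f), where 1.78% were. Of the partners 3 were called between the clones, 6.98%: Vegfa (-1.71) and Pgf (-1.26), both ligands of Nrp1, were lower in OE16, and Mst1r was higher (1.69).

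Platr18 silencing in E1KD cells was the last comparison. Platr18 (Lncenc1) had 2.92 and 3.10 CPM in SCR and 0.136 and 0.170 CPM in PKD. Its SCR values overlapped those of EV (3.68 and 3.06 CPM). In the first kind of library it had 1.24 and 1.45 CPM in NMuMG and 17.9 and 14.6 CPM in E1KD. The remaining Platr18 levels of that kind, in CPM, were 2.40 and 2.70 (TGFb), 25.7 and 26.2 (M1P), 76.9 and 73.3 (L1P). Platr18 and Sema4f were both higher with TGFb and in E1KD than in NMuMG. Sema4f was highest with TGFb (22.1 and 24.5 CPM), however, and from E1KD through M1P to L1P it fell while Platr18 rose. Whether these levels are linked was not tested. Between PKD and SCR only Sema4f was called, 4.55% of the members, against 1.48% of all tested genes, or 0.485% higher and 0.994% lower (2.69 and 2.94 CPM in SCR, 0.353 and 0.293 CPM in PKD, difference -1.53, adjusted p = 1.9e-07). Nrp2, picked out after its values were seen, was just short of the limit. It had 35.4 and 37.7 CPM in SCR and 18.8 and 17.4 CPM in PKD (difference -0.98, adjusted p = 3.5e-06), and it was called without SCR replicate 1 or PKD replicate 1 (at most -1.03). Plxna4, which was called higher together with Sema4f in E1KD and in SCR, did not fall with Sema4f here. Plxna4 had 2.03 and 2.08 CPM in SCR and 2.90 and 3.14 CPM in PKD (difference 0.39, 95% interval 0.18 to 0.61, adjusted p = 0.011). Of the partners only Mras, a Ras-family GTPase, was called, 2.33%, from 4.51 and 4.30 to 0.305 and 0.266 CPM (-2.07, adjusted p = 5.1e-09).

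With no limit on the size of the difference, an adjusted p under 0.05 took in more members and more of all genes. With TGFb 20 of the 22 members passed it, against 55.4% of all tested genes, and in E1KD against NMuMG 17, against 56.6%. Between E1KD and TGFb 19 members passed (71.5% of all genes), between M1P and E1KD 15 (49.1%) and between L1P and M1P 11 (18.5%). In the second kind of library 8 passed in OE against EV (28.8%), 13 between the clones (42.5%), 9 in PKD against SCR (19.5%) and 14 in SCR against EV (42.6%), and the difference between the kinds gave 12 (21.3%).

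**Figure D5:**
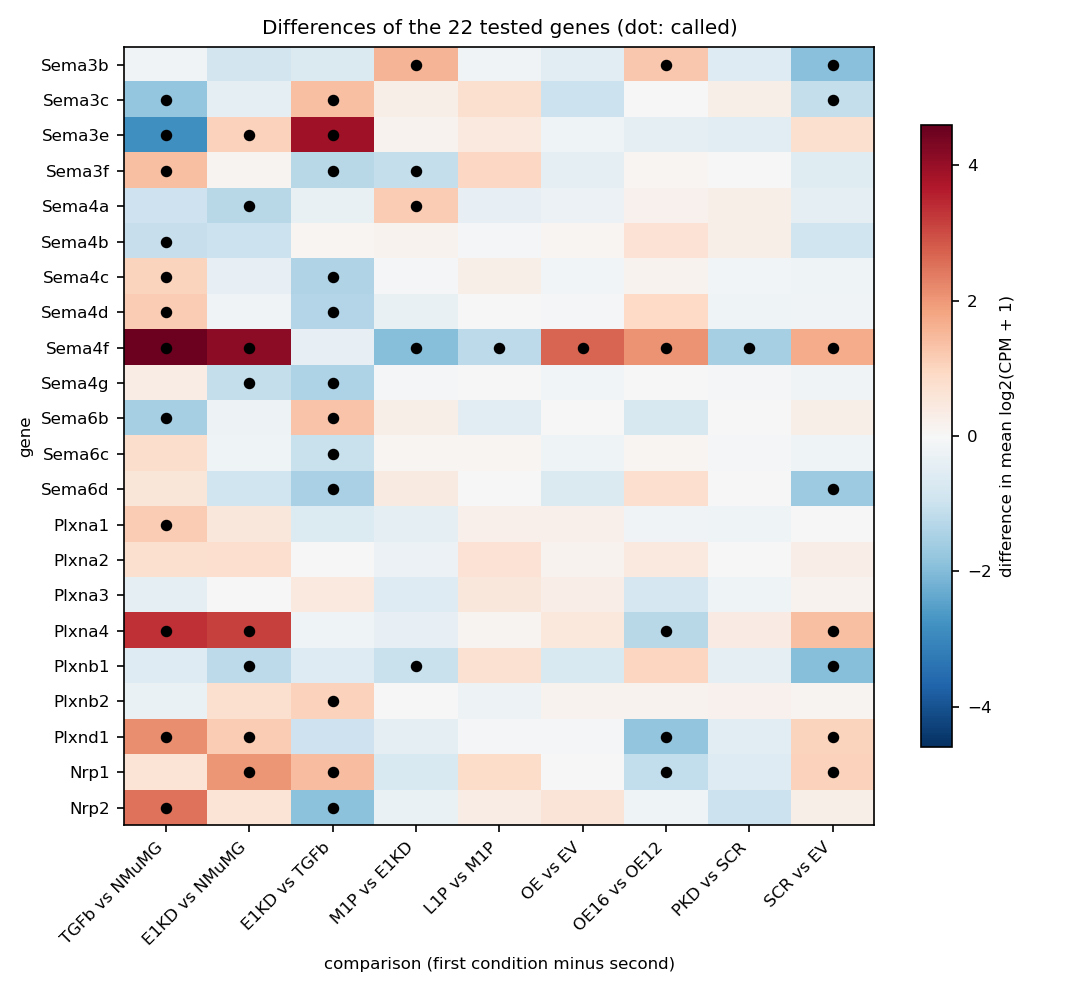
Difference in mean log2(CPM + 1) of the 22 tested genes (rows) in 9 comparisons (columns), first condition minus second, on a color scale with red for higher and blue for lower; dots mark called genes. Sema4f carries a dot in every column but E1KD against TGFb, and the first 3 columns hold 12, 8 and 12 dots.

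Overlapping genes could lend reads to some members, since the counting is not stated to use strand. An antisense gene inside Plxna1 reached 20.8 CPM at most, and genes that overlap Nrp2, Sema3e, Sema4b, Sema4c and Plxnb1 reached 1.07 to 2.94 CPM. Pseudogenes inside Sema3d and Sema5b, both untested, reached 24.8 and 59.1 CPM. No overlapping gene reached 1 CPM for Sema4f, Plxna4, Plxnd1 or Nrp1.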

How the data were processed

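RNA sequencing libraries of 10 conditions, 2 each, were read from 1 table of 54986 genes. The authors aligned reads with Bowtie2, assigned them to genes with the expectation-maximization method of Partek, and deposited depth-scaled counts (CPM) with 0.0001 added, which was removed from the values printed. With a tolerance of 0.05 reads, 92.1% to 98.1% of low values were whole reads, too few to rebuild counts, and count tests were left out. Genes that reached 1 CPM in 2 or more libraries were fitted as log2(CPM + 1) by limma 3.58.1 (trended eBayes; R 4.3.3), with 1 mean per condition over all 20 libraries and 10 residual degrees of freedom. Fold changes on this scale understate those of low genes. Adjusted p-values are Benjamini-Hochberg over all 17106 tested genes. The fit was tested on simulated data. Levels per kb use exon unions of GENCODE M21, whose coordinates equal those of the table for all 31 genes. Members, partner genes and markers were chosen with earlier results of these data known. Values per library are given for the 6 called members, and the 3 called partners, with the largest difference in a comparison. The numbers of reads come from the value of 1 read in each library and cover counting error only. Tables used Python 3.11.15.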

Additional observations from a re-analysis of the deposited data

Results flagged for a closer look

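The effect of silencing hnRNP E1 differed between the 2 kinds of library for 3 of the 22 tested members, by the test of that difference in limma. It was larger in E1KD against NMuMG than in SCR against EV by 2.43 on the log2 scale for Sema4f and by 1.77 for Plxna4, and it was less negative by 1.07 for Sema3b, whose call was lost in most of the fits that left out a library.

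The effect of Platr18 overexpression differed between clones 12 and 16 for 5 members. Clone 16 was lower than clone 12 by -1.81 for Plxnd1, -1.27 for Plxna4 and -1.13 for Nrp1, and higher by 2.05 for Sema4f and 1.23 for Sema3b. Each clone is 1 line with 2 libraries, so a difference between clones and an effect of the amount of Platr18 cannot be told apart. Groups of 2 libraries were too small to be searched for outlying libraries.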

How the results depend on the processing

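The 108 results of single members followed here had an adjusted p under 0.05 and were called or differed by at least 0.50. Each was paired with each alternative setting of its comparison. Of these pairs, 1380 kept their direction and side of the limit, 57 lost a call, 44 gained one and 1 changed sign: Sema3b in OE against EV was -0.50 over both clones and 0.12 with clone 16 alone. An adjusted p limit or a replicate block cannot move the difference itself, so those pairs keep its direction by construction. In the order TGFb against NMuMG, E1KD against NMuMG, E1KD against TGFb, M1P against E1KD, L1P against M1P, OE against EV, OE16 against OE12, PKD against SCR, SCR against EV and the difference between the kinds of library, an adjusted p under 0.05 with no limit on the fold change called 20, 17, 19, 15, 11, 8, 13, 9, 14 and 12 members and 28, 27, 34, 27, 14, 20, 25, 13, 21 and 14 partners. On the compared libraries alone, members called were 3 in E1KD against NMuMG, 4 in E1KD against TGFb and 0 in M1P against E1KD (limma, with 7 at an unadjusted p under 0.05), and partners were 2 and 2 in the first pair. Those fits called 758, 1366 and 274 of all 17106 tested genes. With pseudocount 0.1, members were 2 in L1P, OE and PKD, 8 in OE16 against OE12 and 5 in the difference between kinds, and partners were 7 in M1P, 1 in L1P, 2 in OE, 5 in OE16 against OE12 and 4 in PKD. Over all tested genes there were 465, 616, 633, 1362 and 983 calls, in the order given for members. With a mean of at least 5 CPM, members were 3 in OE16 against OE12, 5 in SCR and 1 in the difference between kinds, and partners were 3 in E1KD against NMuMG, 7 in E1KD against TGFb and 2 in M1P. Of the 11517 genes tested there, 476, 557 and 308 were called, in the order given for members. Median-of-ratios rescaling left 3 members in M1P, as did equal sums, and called 1 partner in OE. In M1P the former called 615 and the latter 648 of all tested genes. Clone 12 alone gave 5 members and 1 partner, and clone 16 alone 1 partner. The causes of these shifts were not tested, except that fits on fewer libraries have fewer residual degrees of freedom.

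Leaving out 1 library at a time changed the sign of none of the single-member differences followed above. The E1KD libraries moved the differences of all tested genes. Without E1KD replicate 2 their median went from 0.17 to 0.33 in E1KD against NMuMG and from -0.17 to -0.32 in M1P against E1KD. In the difference between kinds it went from 0.17 to 0.32. Without E1KD replicate 1 these 3 medians were 0.00, -0.01 and -0.01. Calls of members in such fits move with this shift. The library left alone in its condition was assumed to vary like the others. Sema6c in E1KD against TGFb was not called without TGFb replicate 2 or E1KD replicate 2 (-0.84 and -0.97).

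With the replicate block the members called were 12, 8, 12, 5, 1, 1, 5, 1, 8 and 3 in the order above, the same counts as without it. The replicate numbers share no stated batch, and with 2 pairs they do not show a pairing: deviations of same-numbered libraries correlated at -0.39 between E1KD and TGFb, at -0.12 between OE16 and EV and at -0.09 to 0.29 in the other pairs. With crossed numbers, an alternative chosen after seeing the data, 12 members were called in E1KD against TGFb and 1 in OE. A setting that made medians equal within each condition was also chosen after seeing the data and moved no count of members by over 1.5 times in the 3 comparisons with E1KD. The 9 untested members were left out by the filter of 1 CPM, and one of them, Sema6a, had 60 and 51 reads in E1KD. Depth limits Sema4f in NMuMG, at 3 and 4 reads.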
